A study of Mus musculus with 16 samples.

Results

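The transcriptional response to interleukin-6 (IL-6) was read in the Ba/F3 line labelled gp130:IL-6R, which is named for the 2 receptor chains it carries. By their labels, 8 of the 16 libraries of the series belonged to this comparison, and all genes of the deposited count table entered it. In 4 libraries the cells had been given IL-6 at 100 ng/ml, and in the other 4 the same line had been kept in medium. The remaining 8 libraries came from a Ba/F3 line with a receptor labelled ChimP3V3:gp130Box1/2 (ChimP3V3 cells), 4 of them under the same dose of IL-6 and 4 in medium. They served to share the estimate of spread and to test where the response of ChimP3V3 cells differed. Per the labels, the gp130:IL-6R receptor is the unaltered one ("wt"), and the series title speaks of synthetic IL-6 receptor complexes that act mainly through STAT3. All 8 libraries are of 1 receptor-carrying line, so the receptor chains are shared by both groups. How long IL-6 was present, and whether the cells also had interleukin-3 (IL-3), the cytokine on which Ba/F3 cells normally grow, is not given in the sources used here.

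IL-6 first binds its own receptor chain, and this pair then gathers gp130 into a signalling complex. JAK kinases held by gp130 phosphorylate STAT3, which enters the nucleus and switches on target genes, while the phosphatase SHP2, bound to another part of gp130, passes the signal to RAS and ERK. SOCS proteins, made in response, shut the receptor off again. Ba/F3 cells, a mouse line of pro-B origin, are a common test bed for cytokine receptors because a foreign receptor can take over from IL-3 in keeping them alive and dividing.

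The libraries held 1427596 to 1594557 counts under IL-6 and 1423829 to 1650348 in medium, and a library without a count for a gene allowed up to 1.88 to 2.10 CPM (counts scaled to the size of the library) under IL-6 and up to 1.82 to 2.11 CPM in medium, limits that cover counting error only. The first principal component held 63.7% of the variance and separated the groups. Within the groups, 3 of 12 pairs of libraries differed by no more than the sampling noise, and the labels do not say that libraries came from separate cultures. The p-values therefore measure the spread between these libraries, which may be technical, and a fit with such libraries summed is given in the closing section. Protein genes of the mitochondrial genome took 1.43% to 1.62% of counts under IL-6 and 1.14% to 1.19% in medium. The 77 genes of cytosolic ribosomal proteins took 6.85% to 7.33% under IL-6 and 5.83% to 6.24% in medium. Neither pair of ranges overlapped. With both sets of genes left out of the scaling, 4756 of the 4769 calls in gp130:IL-6R cells remained.

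Socs3 and Zfp36 carried the letters TTCNNNGAA, to which activated STAT factors bind, just before their start, and both were among the strongest risers. Socs3 encodes the inhibitor that binds gp130 and its JAK kinases, and Zfp36 encodes a protein that marks AU-rich mRNAs for decay. The windows below hold the 250 bases before the annotated start, from RefSeq on build GRCm38.p6, at chr11:117969367-117969616 (minus strand) for Socs3 and chr7:28379229-28379478 (minus strand) for Zfp36. Capitals mark the match, which begins 154 bases before the start in Socs3 and 17 bases before it in Zfp36.
Socs3: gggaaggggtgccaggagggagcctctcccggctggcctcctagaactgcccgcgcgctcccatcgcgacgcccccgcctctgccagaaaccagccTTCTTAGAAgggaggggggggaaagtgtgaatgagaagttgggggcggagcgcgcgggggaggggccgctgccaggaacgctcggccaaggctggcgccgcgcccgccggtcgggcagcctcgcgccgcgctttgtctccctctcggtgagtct
Zfp36: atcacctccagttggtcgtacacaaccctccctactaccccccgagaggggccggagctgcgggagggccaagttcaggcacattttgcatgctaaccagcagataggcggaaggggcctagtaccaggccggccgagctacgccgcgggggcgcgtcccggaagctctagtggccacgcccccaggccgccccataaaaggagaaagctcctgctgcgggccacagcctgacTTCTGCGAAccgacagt
Both strands were searched in 9839 windows, which covered 7735 of the 9540 genes tested. The letters stood in 6.01% of all windows, in 7.14% of those of genes called at least 1.5-fold higher under IL-6 and in 8.07% of those called at least 1.5-fold lower. A match is a description of the window and shows no binding.

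Under IL-6, 5 of 6 tested receptor chains and ligands of the gp130 family rose, as did 8 of 19 tested genes of proteins that restrain the pathway, while 8 of 10 JAK and STAT genes did not pass the test. Osm, which encodes oncostatin M, another ligand of gp130, had 48.8, 47.2, 47.6 and 44.7 CPM under IL-6, against 8.88, 10.2, 7.82 and 11.8 CPM in medium. All 4 IL-6 libraries lay far above all 4 medium libraries, and the rise was 4.81-fold (log2 2.27, SE 0.159, adjusted p = 1.37e-15). Adjusted p-values are from edgeR's quasi-likelihood test with Benjamini-Hochberg adjustment over 9540 genes, and genes were called at an adjusted p under 0.05. Il6 itself, the gene of the cytokine that was added, had 144, 145, 144 and 152 CPM under IL-6, against 81.2, 83.3, 68.2 and 84.4 CPM in medium. Its groups did not overlap, although 1 IL-6 library stood above the other 3, and the rise was 1.84-fold (log2 0.88, SE 0.072, adjusted p = 1.37e-13). Ebi3, a subunit that IL-27 shares with IL-35, rose 2.54-fold, with 23.5 to 26.5 CPM under IL-6, against 5.24 to 14.2 CPM in medium. Il27ra, the IL-27 receptor chain that pairs with gp130, rose 1.53-fold, with 22.2 to 30.4 CPM under IL-6, against 15.2 to 19.2 CPM in medium, and was at the border of the threshold with limma (adjusted p = 0.0502). Il6st, the gene of gp130, had 178, 187, 176 and 175 CPM under IL-6, against 149, 135, 129 and 129 CPM in medium, a rise of 1.32-fold without overlap (adjusted p = 1.18e-06). Il11ra1, a receptor chain for IL-11 that overlaps its neighbours on the chromosome, did not pass (log2 0.45, SE 0.361, adjusted p = 0.313). These 6 were the tested members of a list of 16 receptor chains and ligands: 5 rose and 0 fell, with a median log2 difference of 0.75. Over all 9540 genes tested, 50.0% were called, 25.7% higher and 24.3% lower under IL-6, and the median log2 difference was 0.01. Il6ra, the receptor chain of IL-6, had 3 counts over the 4 IL-6 libraries and 0 in medium and was therefore left untested. An introduced chain has no separate entry in the counts. Whether its reads were counted under the cell's own gene is not given in the sources used here.

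Of 10 JAK and STAT genes tested, 1 rose and 1 fell. Jak1, the kinase on which gp130 chiefly relies, had 597, 579, 587 and 583 CPM under IL-6, against 433, 459, 485 and 483 CPM in medium, a rise of 1.26-fold without overlap (adjusted p = 8.28e-10). Stat5a, the STAT factor used by the IL-3 receptor, had 26.5, 22.2, 22.8 and 20.8 CPM under IL-6, against 34.2, 30, 38.4 and 36 CPM in medium, and was 1.5-fold lower (adjusted p = 0.0035). Stat5a overlaps Stat3 on the opposite strand, and reads of overlapping genes are uncertain because the strand setting of the counting is not given in the sources used here. Stat3, the factor gp130 is best known for, was at 279 to 306 CPM under IL-6, against 272 to 299.8 CPM in medium (log2 0.06, SE 0.044, adjusted p = 0.302), so a difference in its own transcript was not detected. The remaining members were also not called, and among them Jak2 differed by 0.15 on the log2 scale, Jak3 by -0.44, Tyk2 by 0.27, Stat2 by -0.08, Stat5b by -0.19 and Stat6 by -0.28.

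Among 19 tested genes of SOCS, PIAS and phosphatase brakes, 8 rose and 2 fell. Socs3 had 132, 133, 168 and 148 CPM under IL-6, against 20.9, 21, 18.5 and 26.8 CPM in medium. Its lowest IL-6 library was several times its highest medium library, and the rise was 6.64-fold (log2 2.73, SE 0.111, adjusted p = 3.48e-23). Socs1, which blocks JAK kinases directly, had 38 counts over the IL-6 libraries and 2 over the medium libraries, a ratio of 19.6 with a 95% counting interval from 5.06 to 167.5. Sh2b3 (also called LNK), an adaptor that dampens JAK2 signals in blood cells, had 54.9, 55.1, 45.5 and 48.4 CPM under IL-6, against 14, 16.2, 14.9 and 17.7 CPM in medium, 3.23-fold higher without overlap (adjusted p = 5.04e-13). Socs2, a classical STAT5 target, rose 1.55-fold, and Socs6 rose 1.23-fold. Pias3, which binds STAT3 and restrains it, rose 1.39-fold, with 35.1 to 37.1 CPM under IL-6, against 22.7 to 28.8 CPM in medium. Ptprc (CD45), a membrane phosphatase, rose 1.13-fold. Cish, a STAT5-induced brake, was 1.67-fold higher with overlapping groups (adjusted p = 0.0408), and it was no longer called with DESeq2 (adjusted p = 0.0881) or without any 1 of 5 of the 8 libraries (adjusted p = 0.0514 to 0.239). Both SH2-domain phosphatases fell slightly: Ptpn11, the gene of SHP2, was 1.2-fold lower and Ptpn6, the gene of SHP1, 1.15-fold lower, which DESeq2 did not call (adjusted p = 0.0542) and which was not called without any 1 of 4 of the 8 libraries. Not called were Socs4 (log2 -0.01), Socs5 (0.06), Socs7 (0.17), Pias1 (0.15), Pias2 (0.15), Pias4 (0.06), Ptpn1 (-0.06), Ptpn2 (0.05) and Cbl (0.05).

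**Figure D1:**
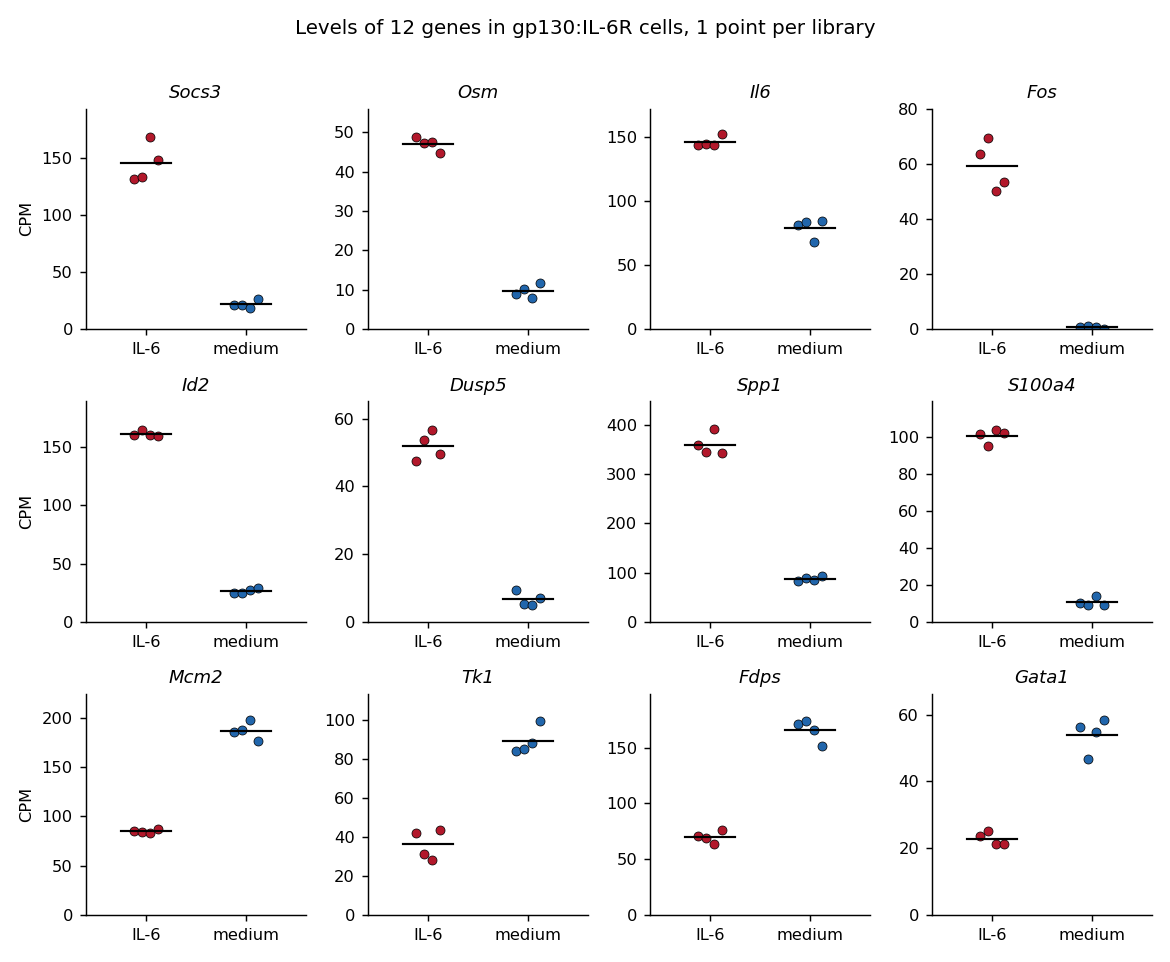
Levels of 12 genes in each library of gp130:IL-6R cells (CPM, linear axis from 0), IL-6 left of medium, 1 point per library, with a line at the mean of each group. In each panel the 4 IL-6 libraries lie on 1 side of the 4 medium libraries: Socs3, Osm, Il6, Fos, Id2, Dusp5, Spp1 and S100a4 were higher under IL-6, and Mcm2, Tk1, Fdps and Gata1 lower.

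The response reached much of the transcriptome, but most differences were small and the large ones were mainly rises. Under IL-6, 2454 genes (25.7%) were higher and 2315 (24.3%) lower. At 1.5-fold or more these were 995 (10.4%) higher and 563 (5.90%) lower, and at 2-fold or more 379 (3.97%) higher and 77 (0.807%) lower, 4.78% of the table in all. At 4-fold or more 63 were higher and 6 lower. The median size of a called difference was 0.50 on the log2 scale among rises and 0.41 among falls. All 4 IL-6 libraries lay above all 4 medium libraries in 2164 genes (22.7%) and below them in 2017 (21.1%).

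**Figure D2:**
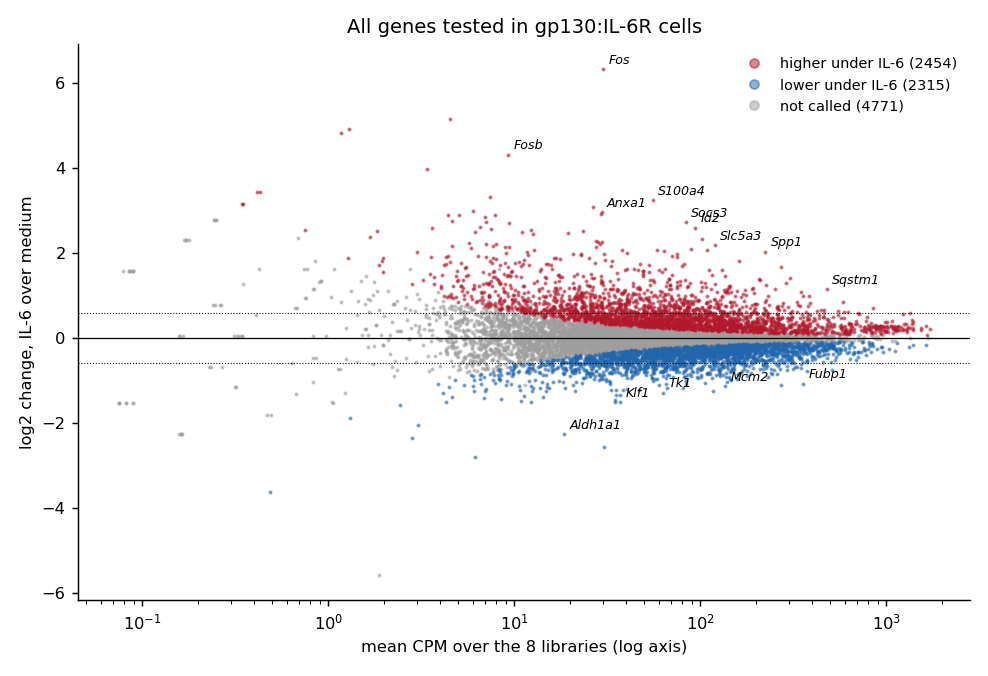
Each point is 1 of the 9540 genes tested in gp130:IL-6R cells, with the mean CPM over the 8 libraries on a log axis and the log2 change under IL-6 over medium on the vertical axis, coloured by whether the gene was called higher, lower or neither, and dotted lines at 1.5-fold. Rises reach much further from 0 than falls: 379 genes were at least 2-fold higher and 77 at least 2-fold lower.

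Transcription factor genes of the early response to growth factors were among the sharpest rises. Fos (chr12:85520664-85524047 on GRCm39, plus strand), a subunit of AP-1, had 63.8, 69.4, 50.4 and 53.5 CPM under IL-6, against 0.634, 1.2, 0.71 and 0 CPM in medium. It was all but silent in medium, with 4 counts over the 4 libraries there, and the fitted rise was 80.7-fold (log2 6.33, SE 0.28, adjusted p = 5.96e-22). Fosb, its close relative, was similarly low in medium, with 16.3 to 21.5 CPM under IL-6, against 0 to 1.31 CPM in medium. Junb, the AP-1 partner often induced by STAT3, had 421, 394, 431 and 406 CPM under IL-6, against 121, 130, 139 and 127 CPM in medium and rose 3.2-fold, although it overlaps Prdx2 on the opposite strand. In the list of 21 AP-1, ATF and CREB factors tested, 13 rose and 1 fell, with a median of 0.53. Besides the AP-1 members, Atf5, a factor of the amino acid stress response, rose 2.38-fold and Nfe2l2, the gene of the oxidative stress regulator NRF2, rose 1.73-fold. Creb1 fell 1.34-fold.

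Of 25 tested genes of a list of early-response genes, which held members of the EGR, IER, NR4A and KLF families and others, 19 rose and 1 fell. The median log2 difference was 0.74. Id2, an inhibitor of helix-loop-helix factors that drive B-cell development, had 160.1, 165, 160.1 and 159 CPM under IL-6, against 24.7, 25.2, 27.7 and 28.8 CPM in medium. The groups were far apart, and the rise was 6.05-fold (log2 2.6, SE 0.085, adjusted p = 3.56e-26). Egr2, a zinc-finger factor of the ERK response, rose 6.68-fold from low levels, with 10.1 to 14.9 CPM under IL-6, against 0.71 to 2.54 CPM in medium. Klf6 had 414, 423, 421 and 382 CPM under IL-6, against 170, 149, 179.8 and 172 CPM in medium, a rise of 2.45-fold. Ier3, a protein that prolongs ERK signals and counters cell death, rose 2.23-fold, and Btg1, a brake on proliferation, rose 2.2-fold. Gadd45b, a stress sensor, was the member that fell (1.47-fold), and it was not called in counts thinned to the smallest library (adjusted p = 0.108) or without the third IL-6 library (adjusted p = 0.0517).

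The MYC network and the clock also moved mostly upward. Myc had 68.5, 68, 70.4 and 74.2 CPM under IL-6, against 31.7, 36.5, 34.1 and 41.2 CPM in medium, and Mycn had 161, 153, 157 and 165 CPM under IL-6, against 86.3, 97.1, 91.7 and 77.9 CPM in medium. Neither gene overlapped between groups, and they rose 1.96-fold and 1.8-fold. Mnt, a MYC antagonist, rose 1.9-fold, so 8 of 11 members rose and 1, Mlx, fell 1.28-fold, a call lost without IL-6 library 2 (adjusted p = 0.149) and without medium library 1, 3 or 4 (adjusted p = 0.0861, 0.107 and 0.0576). Of 14 clock genes tested, 8 rose and 0 fell. Nr1d2 (REV-ERBβ), a repressor of the clock loop, had 99.7, 102, 95.2 and 95.6 CPM under IL-6, against 31.1, 30, 27.7 and 38.6 CPM in medium and rose 3.07-fold, Tef rose 2.35-fold, and Nfil3, a repressor that IL-3 induces in pro-B cells, rose 1.88-fold.

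Among 43 tested transcription factors of blood cell development, 23 rose and 7 fell, and the strongest falls were factors of the red cell lineage. Gata1, the chief erythroid factor, had 23.7, 25, 21.4 and 21.4 CPM under IL-6, against 56.4, 46.7, 54.7 and 58.3 CPM in medium. Klf1, which drives the globin genes, had 15.6, 16.5, 22.1 and 22.6 CPM under IL-6, against 51.4, 58.1, 44.8 and 64.8 CPM in medium. Both were lower in every IL-6 library than in any medium library, by 2.35-fold (adjusted p = 6.85e-11) and 2.84-fold (adjusted p = 6.55e-12). Zbtb16 (PLZF) fell 1.57-fold and Tcf3, the gene of the B-lineage factor E2A, 1.53-fold. Bach1, a heme-regulated repressor, rose 2.24-fold, and Myb, a progenitor factor, 1.59-fold. Gfi1b, an erythroid and megakaryocyte repressor that was picked after its values were seen, rose 3.97-fold against the direction of Gata1, with 44.2 to 52.9 CPM under IL-6, against 5.68 to 15 CPM in medium.

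Components of TGF-β signalling and nuclear receptors formed further groups of rises. Smad3, which carries the TGF-β signal into the nucleus, had 26.5, 22.9, 23.5 and 30.8 CPM under IL-6, against 3.81, 7.19, 7.82 and 9.16 CPM in medium and rose 3.71-fold. Tgfbr1, the signalling receptor, rose 2.51-fold and Ski, which represses SMAD activity, 1.9-fold. In that list 12 of 21 members rose and 3 fell, the falls being the E-protein genes Tcf3, Tcf12 and Tcf4, by up to 1.53-fold, and Tcf4 was not called without IL-6 library 1 (adjusted p = 0.108). In the list of 18 nuclear hormone and retinoid receptors and their enzymes, 11 rose and 2 fell. Aldh1a1, which makes retinoic acid, had 9.5, 6.44, 4.83 and 4.4 CPM under IL-6, against 27.3, 32.4, 35.5 and 27.5 CPM in medium. It was 4.83-fold lower, 1 of the largest falls (adjusted p = 2.53e-11), while the retinoic acid receptor Rarg rose 1.88-fold and Dhrs3, which turns retinal back into retinol, 3.05-fold.

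The brakes of the ERK pathway rose almost as a set. Dusp5, a nuclear phosphatase of ERK, had 47.5, 53.7, 56.6 and 49.7 CPM under IL-6, against 9.51, 5.39, 4.97 and 7.2 CPM in medium. Its lowest IL-6 library was several times its highest medium library, and it rose 7.54-fold (log2 2.91, SE 0.194, adjusted p = 5.99e-15). Dusp1, which acts on p38, JNK and ERK, had 61.7, 63, 60 and 61 CPM under IL-6, against 11.4, 14.4, 14.2 and 17.7 CPM in medium, a rise of 4.25-fold without overlap, and it overlaps Ergic1 on the opposite strand. Dusp6, the cytoplasmic ERK phosphatase, rose 1.8-fold and Dusp3 rose 1.65-fold. Of 13 dual-specificity phosphatases, Sprouty and Spred genes tested, 12 rose and 0 fell, with a median of 0.80. Rgs2, a brake on G protein signals, had 258, 275, 242 and 238 CPM under IL-6, against 82.4, 67.1, 69.6 and 67.4 CPM in medium and rose 3.52-fold (adjusted p = 3.13e-24). In its list of 28 G protein genes 8 rose and 6 fell, not far from the 25.7% and 24.3% over all genes tested. Among them S1pr4, a receptor for sphingosine-1-phosphate, fell 1.47-fold, and Lpar6, a receptor for lysophosphatidic acid, rose 2.07-fold.

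In the PI3K pathway 10 of 30 members were higher and 6 lower, not far from the 25.7% and 24.3% over all genes tested. Pik3cd, the leukocyte catalytic subunit, had 38.7, 42.2, 40 and 32.1 CPM under IL-6, against 88.2, 80.3, 76.7 and 81.8 CPM in medium, 2.15-fold lower without overlap. Akt1 fell 1.39-fold and Mtor 1.31-fold. Irs2, an adaptor that recruits PI3K, rose 1.67-fold, and Deptor, an inhibitor of mTOR, 1.66-fold. Target genes of FOXO factors, which AKT holds inactive, mostly rose, at 17 of 24 members with 1 fall. Among them, Hbp1, a cell-cycle repressor, rose 1.97-fold, Txnip, a brake on glucose uptake, 1.78-fold, and Klhl24 1.7-fold. The fall was Tsc22d3 (GILZ), 1.87-fold lower.

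Regulators of RNA decay were called in both directions, 11 of 30 higher and 8 lower, with a median of -0.04, against 25.7% higher and 24.3% lower over all genes. Zfp36 had 82.1, 97.3, 98.7 and 99.4 CPM under IL-6, against 27.9, 16.2, 21.3 and 24.9 CPM in medium, and the rise of 4.19-fold left no overlap (log2 2.07, SE 0.123, adjusted p = 1.06e-17). Its relatives Zfp36l1 and Zfp36l2 rose 1.75-fold and 1.53-fold. Hnrnpd (AUF1), which binds the same AU-rich elements, had 161, 157, 155 and 165 CPM under IL-6, against 292, 298, 324 and 298 CPM in medium, 1.9-fold lower, and Elavl1 (HuR), which protects such mRNAs, fell 1.35-fold.

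Of 15 tested genes of secreted factors 12 rose and 1 fell, with a median of 0.98 on the log2 scale. Spp1 (osteopontin; chr5:104582984-104588916 on GRCm39, plus strand), a secreted adhesion protein, had 359.5, 346, 391 and 344 CPM under IL-6, against 83.7, 89.3, 85.3 and 93.6 CPM in medium. The rise was 4.08-fold (log2 2.03, SE 0.062, adjusted p = 7.27e-27), with no overlap and little scatter within groups. Grn, the growth factor progranulin, had 257 to 264 CPM under IL-6, against 109.7 to 125 CPM in medium, a rise of 2.24-fold. Csf1 and Ccl6, a growth factor and a chemokine of macrophages picked after their values were seen, rose 2.64-fold and 3.08-fold. Vegfb fell 1.36-fold.

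Receptors for cytokines rose in 12 of 23 cases and fell in 2. Crlf2, a chain of the TSLP receptor, had 106, 106.6, 127 and 104 CPM under IL-6, against 57.7, 56.9, 56.8 and 51.1 CPM in medium and rose 1.99-fold. Csf2rb2, the IL-3-specific beta chain of the mouse, had 265 to 288 CPM under IL-6, against 178 to 199.8 CPM in medium and rose 1.48-fold, and Ifnar2, a chain of the type I interferon receptor, rose 1.67-fold. Csf2rb2 and Csf2rb are near-identical copies, so their split of reads is uncertain. Ifngr1 fell 1.35-fold and Ccr2 1.27-fold.

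S100 proteins, annexins and actin-binding proteins held several of the highest folds of the table. S100a4 (chr3:90511078-90513352 on GRCm39, plus strand), a calcium-binding protein of motile cells, had 102, 95.2, 104 and 102 CPM under IL-6, against 10.1, 8.99, 14.2 and 9.16 CPM in medium. Every IL-6 library exceeded the highest medium library several times over, and the rise was 9.5-fold (log2 3.25, SE 0.126, adjusted p = 9.66e-24). Anxa1, a calcium-dependent membrane protein that dampens inflammation, had 63.8, 47.9, 50.4 and 47.2 CPM under IL-6, against 4.44, 7.19, 7.1 and 7.86 CPM in medium and rose 7.79-fold. Gsn (gelsolin), which severs actin filaments, had 138 to 152 CPM under IL-6, against 26.6 to 39.8 CPM in medium, a rise of 4.28-fold, and Anxa5 rose 2.77-fold. Vim, the intermediate filament protein vimentin, rose 1.56-fold. In all, 30 of 49 members rose and 5 fell, with a median of 0.29. The falls were small for Actn4 (1.2-fold), Pfn1 (1.13-fold), Rdx (1.17-fold) and Tpm3 (1.12-fold). The fifth was Lgals9, a galectin picked after its values were seen, which fell 2.86-fold (adjusted p = 0.0051) at low levels, with 13 counts over the IL-6 libraries and 40 over the medium libraries.

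Surface molecules of adhesion changed in both directions, 11 higher and 7 lower of 28. Adam8, a membrane protease, had 44.8, 44.4, 46.2 and 54.1 CPM under IL-6, against 6.98, 6.59, 2.84 and 5.24 CPM in medium and rose 8.52-fold without overlap. Selp, which encodes P-selectin, rose 2.54-fold and Cd53, a tetraspanin of leukocytes, 1.63-fold. Icam2, an integrin ligand, fell 1.9-fold, and Selplg, the ligand of P-selectin, 1.61-fold. Among 42 small GTPases of cell shape and their regulators, 16 rose, such as Arhgdib (1.68-fold) and Rhoc (1.61-fold), and 4 fell.

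Genes of DNA replication and mitosis fell nearly throughout. Of 53 tested genes of replication origins and forks, 49 were lower and 0 higher, with a median log2 difference of -0.58, and of 68 genes of mitosis and the spindle, 62 were lower and 0 higher, with a median of -0.55. Mcm2, a subunit of the replicative helicase, had 84.8, 84.4, 82.8 and 87.5 CPM under IL-6, against 185, 187, 198 and 176 CPM in medium. The levels hardly varied within a group, and Mcm2 was 2.19-fold lower (log2 -1.13, SE 0.063, adjusted p = 1.25e-18). Its partner Mcm4 fell 1.66-fold, Uhrf1, which copies DNA methylation at the fork, 1.8-fold, and Lig1, which seals new strands, 1.61-fold. Kif4, a motor that shapes mitotic chromosomes, had 16.5 to 23.7 CPM under IL-6, against 41.9 to 59 CPM in medium, 2.53-fold lower. Nuf2 of the kinetochore, the condensin subunit Ncapg and the cyclin Ccna2 fell 2.08-fold, 1.97-fold and 1.68-fold. Ncapg and Ccna2 each overlap a gene on the opposite strand.

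The promoters of some of these genes are shown because they carry the letters best known from cell-cycle genes: TTTCCCGC, bound by E2F factors, in Cdc6, which loads the helicase, and Mcm7, a helicase subunit, and CCAAT with TTTGAA, read by NF-Y and by the DREAM and MuvB complexes, in the cyclin gene Ccnb2. The 250 bases before the start are from RefSeq on GRCm38.p6, at chr11:98907901-98908150 (plus strand) for Cdc6, chr5:138171884-138172133 (minus strand) for Mcm7 and chr9:70421555-70421804 (minus strand) for Ccnb2. Capitals mark the matches, which on the strand shown read GCGGGAAA, the reverse complement, in Cdc6 and Mcm7.
Cdc6: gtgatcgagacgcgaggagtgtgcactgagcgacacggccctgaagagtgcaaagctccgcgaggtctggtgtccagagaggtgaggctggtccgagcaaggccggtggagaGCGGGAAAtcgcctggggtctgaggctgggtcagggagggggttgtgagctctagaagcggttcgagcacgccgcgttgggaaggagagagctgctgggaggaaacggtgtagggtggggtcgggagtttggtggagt
Mcm7: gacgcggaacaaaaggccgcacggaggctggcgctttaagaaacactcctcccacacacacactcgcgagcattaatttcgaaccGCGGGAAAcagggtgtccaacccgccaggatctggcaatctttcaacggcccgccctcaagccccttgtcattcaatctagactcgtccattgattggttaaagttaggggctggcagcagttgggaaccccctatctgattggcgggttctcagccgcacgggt
Ccnb2: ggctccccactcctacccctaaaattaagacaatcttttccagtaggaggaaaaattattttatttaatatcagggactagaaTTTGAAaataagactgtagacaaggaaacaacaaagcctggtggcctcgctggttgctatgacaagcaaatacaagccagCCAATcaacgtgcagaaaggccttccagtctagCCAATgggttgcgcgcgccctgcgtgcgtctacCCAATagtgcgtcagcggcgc
All 3 genes, chosen for these windows after their values were seen, were lower under IL-6: Cdc6 by 1.62-fold, Mcm7 by 1.69-fold and Ccnb2 by 1.69-fold. A second annotated start of Mcm7 had no match. TTTCCCGC stood in 1.75% of all windows, in 4.69% of windows of genes at least 1.5-fold lower and in 0.667% of those at least 1.5-fold higher. In the replication list it stood in 4 of 56 windows (7.14%). CCAAT stood in 36.1% of all windows and 69.8% of those of the mitosis list, and TTTGAA in 10.8% and 31.7%.

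Supply of DNA building blocks followed, with 30 of 41 genes of nucleotide and one-carbon synthesis lower, 2 higher and a median of -0.38. Tk1, which salvages thymidine in S phase, had 42.1, 31.5, 28.3 and 43.4 CPM under IL-6, against 84.3, 85.1, 88.1 and 99.5 CPM in medium. It was 2.44-fold lower without overlap (adjusted p = 1.56e-12), and it overlaps Afmid on the opposite strand. Rrm1, the large subunit of ribonucleotide reductase, fell 1.81-fold and Gart, an enzyme of purine synthesis, 2.0-fold.

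Among G1 regulators, 12 of 26 fell and 4 rose. Rbl1 (p107), a member of the RB family, fell 2.12-fold, Tfdp1, the partner of E2F factors, 1.59-fold and Cdk6 1.47-fold. The inhibitor Cdkn1a (p21) had 313, 308, 337 and 333 CPM under IL-6, against 200.4, 201, 223 and 196 CPM in medium, 1.58-fold higher, and Cdkn1b (p27) rose 1.18-fold. Ccnd2, the D cyclin that IL-3 induces, rose 1.36-fold while Ccnd3 fell 1.27-fold.

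Histone genes split evenly, 7 higher and 7 lower of 21 tested. H1f2, a linker histone, had 441, 462, 447 and 419.6 CPM under IL-6, against 165, 152, 175 and 172 CPM in medium and rose 2.67-fold (adjusted p = 5.9e-25). H2ac6, H2bc4 and H1f3 rose 5.79-fold, 5.01-fold and 4.85-fold. H2bc12 and H4c2 fell 2.78-fold and 2.62-fold, and H2bc12 had 4.14 to 8.82 CPM under IL-6, against 10.7 to 20.9 CPM in medium. The kit reads polyadenylated ends, replication-dependent histone mRNAs mostly lack them, and the copies are close in sequence, so these values are uncertain as levels of histone RNA.

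Repair and chromatin genes leaned downward. In DNA repair, 28 of 57 were lower and 3 higher, with a median of -0.36. The helicase gene Blm had 36, 40.1, 42.1 and 49.1 CPM under IL-6, against 95.8, 89.3, 98 and 75.9 CPM in medium, 2.13-fold lower. The rises were Trp53bp1 (1.83-fold), Msh3 (1.66-fold, in overlap with another gene) and Xpc (1.3-fold), and that of Trp53bp1 was not called with DESeq2 (adjusted p = 0.0523). Of 49 chromatin modifiers 18 fell and 8 rose. Cbx5 (HP1α) had 367 to 391 CPM under IL-6, against 613 to 674 CPM in medium, 1.69-fold lower, Dnmt1 fell 1.62-fold and Ezh2 1.32-fold.

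**Figure D3:**
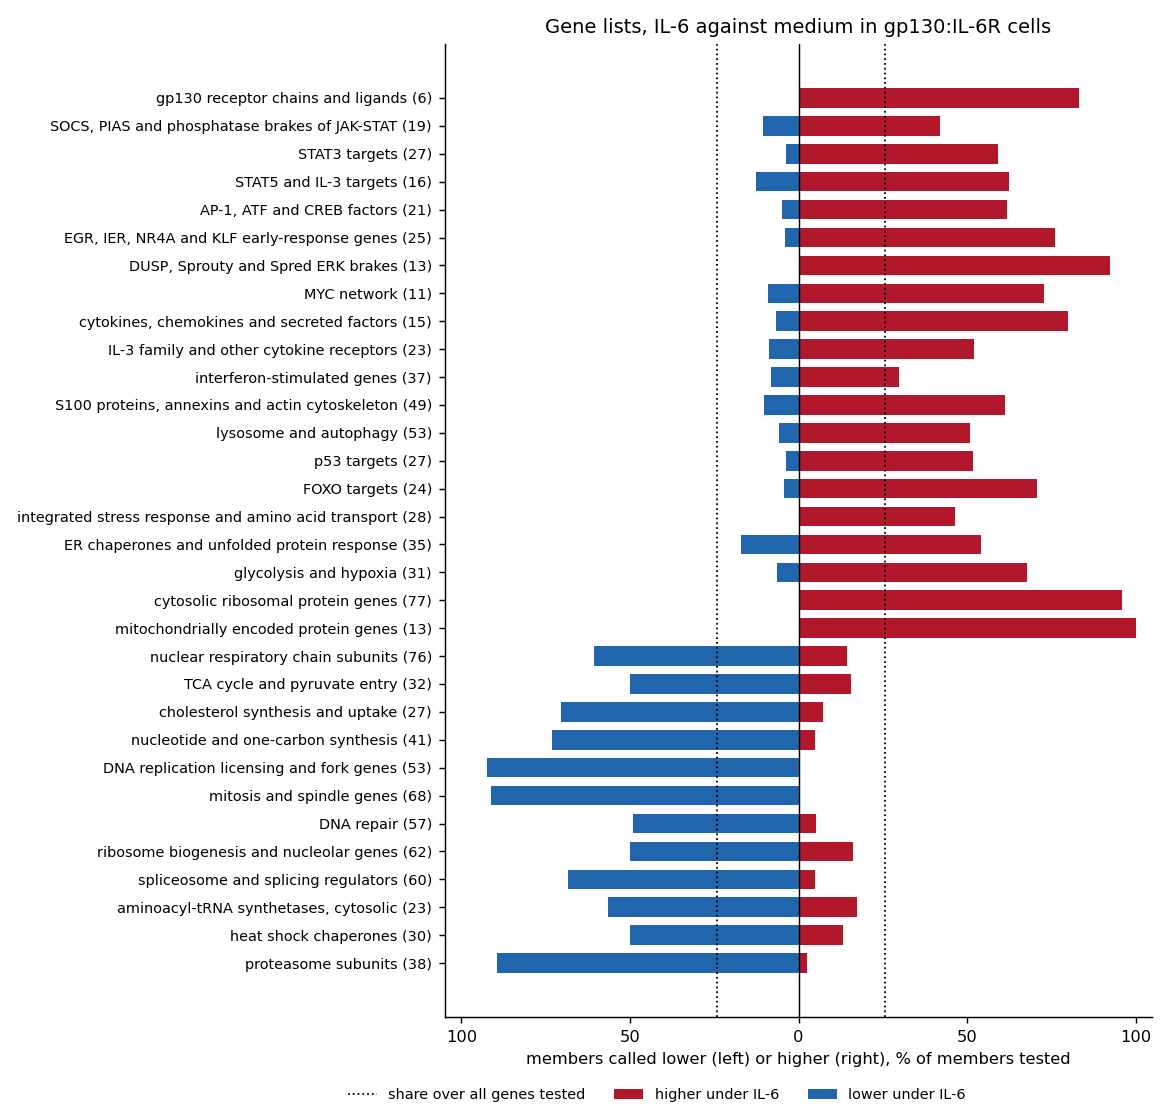
Share of tested members called higher (to the right) and called lower (to the left) under IL-6, in percent of members tested, for 32 gene lists and for all 9540 genes, of which 25.7% were called higher and 24.3% lower. Replication (49 of 53) and mitosis (62 of 68) lie almost wholly to the left, and ERK brakes (12 of 13) and mitochondrially encoded genes (13 of 13) to the right.

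Cholesterol synthesis fell and cholesterol export rose. Of 27 genes of synthesis and uptake, 19 were lower and 2 higher, with a median of -0.47. Fdps, which makes farnesyl diphosphate, had 70.5, 68.7, 63.5 and 76.1 CPM under IL-6, against 171, 174, 166 and 151 CPM in medium, 2.37-fold lower without overlap (adjusted p = 7.42e-18). Pmvk fell 2.54-fold, Acat2 2.04-fold and Cyp51 1.84-fold. Of 10 LXR targets and export genes, 7 rose and 3 fell. Abcg1, a sterol exporter, had 42.7, 40.8, 40 and 45.3 CPM under IL-6, against 19.7, 14.4, 19.2 and 15.1 CPM in medium and rose 2.48-fold. Npc1, which lets cholesterol leave lysosomes, rose 1.74-fold and the exporter Abca1 1.47-fold. The 3 falls were Lpcat3, Srebf1 and Acsl3, of which the lipid factor Srebf1 was 1.26-fold lower. Acaca and Fasn, which begin and complete fatty acid synthesis, fell 2.01-fold and 1.66-fold, and 14 of 30 genes of fatty acid metabolism fell and 5 rose.

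Hmgcs1, which makes the HMG-CoA that the sterol pathway starts from, is shown because its window holds TCACNCCAC, the letters read by SREBP factors, as well as 3 CCAAT boxes. The window is chr13:119690101-119690350 (plus strand, GRCm38.p6, RefSeq), capitals mark the matches, and the CCAAT boxes read ATTGG on the strand shown.
Hmgcs1: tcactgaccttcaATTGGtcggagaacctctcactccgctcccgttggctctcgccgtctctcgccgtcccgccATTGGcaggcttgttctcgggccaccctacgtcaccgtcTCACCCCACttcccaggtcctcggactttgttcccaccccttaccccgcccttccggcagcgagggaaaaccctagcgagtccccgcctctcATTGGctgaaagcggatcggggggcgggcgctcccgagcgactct
Hmgcs1 was picked after its values were seen and was 1.38-fold lower, with 383 to 425 CPM under IL-6, against 545 to 588 CPM in medium. TCACNCCAC stood in 0.986% of all windows and, in the list of cholesterol genes, in Hmgcs1 only, while CCAAT stood in 65.4% of the windows of that list.

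Sugar metabolism and respiration moved apart. In glycolysis and the hypoxia response, 21 of 31 genes rose and 2 fell, with a median of 0.18. Ndrg1, a hypoxia-induced protein, rose 2.26-fold, Gpi1, the second enzyme of glycolysis, 1.48-fold and Pgk1 1.41-fold, while Pfkm fell 1.43-fold and Pfkfb4 1.77-fold. All 13 protein genes of the mitochondrial genome rose, with a median of 0.56, led among the named ones by mt-Nd5 (1.63-fold), mt-Nd6 (1.57-fold) and mt-Nd4 (1.51-fold). The nuclear genes of the same respiratory chain went the other way, 46 of 76 lower and 11 higher with a median of -0.17. Ndufa5 of complex I had 101 to 134 CPM under IL-6, against 164 to 199 CPM in medium, 1.54-fold lower. In the TCA cycle 16 of 32 fell and 5 rose: Idh3a, a subunit of isocitrate dehydrogenase, fell 1.73-fold, and Pdp1, which activates pyruvate dehydrogenase, rose 2.03-fold. Cox6a2, a subunit form of complex IV typical of muscle and heart, had 52 counts under IL-6 and 1 in medium, a ratio of 53.6 with a 95% counting interval from 9.20 to 2156.

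Single antioxidant and iron-handling genes rose strongly, but their lists did not rise as sets. The median was 0.03 for the pentose phosphate and NRF2 list and -0.11 for the iron and heme list. Over all genes tested, 25.7% were higher and 24.3% lower. Hmox1, which breaks down heme, had 59.7, 55.1, 65.6 and 56.6 CPM under IL-6, against 23.5, 22.8, 19.2 and 12.4 CPM in medium, 3.02-fold higher (adjusted p = 9.2e-13). Gclc, the rate-limiting enzyme of glutathione synthesis, had 204, 213, 189.8 and 206 CPM under IL-6, against 82.4, 99.5, 80.3 and 81.2 CPM in medium and rose 2.36-fold. Ftl1, the light chain of ferritin, rose 1.79-fold. Of 34 genes of the pentose phosphate path and NRF2 targets, 13 rose and 8 fell, the falls including Gsr (1.37-fold) and Gpx1 (1.14-fold). Heme synthesis fell in part: among 26 iron and heme genes 11 were lower, such as the mitochondrial transporter gene Abcb10 (1.63-fold), and 5 higher, among them the iron reductase Steap3 (1.86-fold). Slc5a3, a myo-inositol transporter, had 205, 184, 197 and 202 CPM under IL-6, against 51.4, 48.5, 35.5 and 36.7 CPM in medium. It rose 4.54-fold, and it overlaps Mrps6 on the same strand. Mat2a, which makes S-adenosylmethionine, rose 2.13-fold and Srm, which makes spermidine, fell 1.41-fold.

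**Figure D4:**
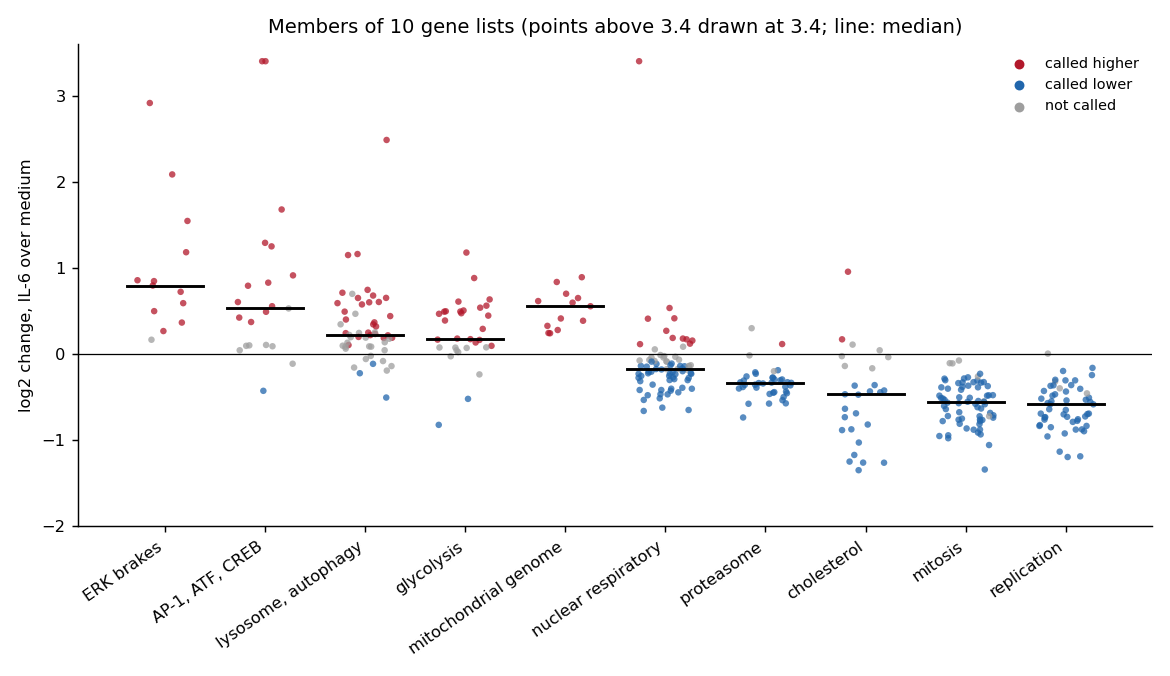
Log2 change under IL-6 over medium for every tested member of 10 gene lists, 1 point per gene, with a line at the median of each list and values above 3.4 drawn at 3.4. The replication, mitosis and cholesterol lists centre on -0.58, -0.55 and -0.47, and the lists of risers lie mainly above 0.

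The protein-making and protein-degrading machinery shifted by small steps. Of 77 cytosolic ribosomal protein genes, 74 rose and 0 fell, with a median of 0.24. Genes that build ribosomes leaned the other way, 31 of 62 lower and 10 higher, among them Nolc1, a nucleolar chaperone, which fell 1.67-fold, and the GTPase gene Gnl3, which rose 1.51-fold. Of 23 cytosolic tRNA synthetases 13 fell and 4 rose, with Farsb the lowest at 1.78-fold. Among translation factors 15 of 43 rose and 10 fell, with a median of -0.04, against 25.7% higher and 24.3% lower over all genes tested. Eif5, which selects the start codon, had 485 to 511 CPM under IL-6, against 274 to 289 CPM in medium, a rise of 1.77-fold. Proteasome subunits fell almost throughout, 34 of 38 with 1 rise, by a median of -0.34: Psmc1 fell 1.49-fold and Psmd12 1.49-fold. The 1 rise, Psmb1 (1.08-fold), was not called with DESeq2 (adjusted p = 0.0664) or without IL-6 library 2 or 3 (adjusted p = 0.104 and 0.140).

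Splicing genes fell in 41 of 60 cases and rose in 3. Snrpa1, a protein of the U2 particle, fell 1.88-fold and Sf3b3, a partner of it, 1.64-fold, whereas Srsf5 rose 1.41-fold and Srsf6 1.32-fold. Hexim1, which holds the elongation kinase P-TEFb inactive, had 303, 346, 315 and 309.5 CPM under IL-6, against 136, 138, 129 and 126 CPM in medium and rose 2.4-fold (adjusted p = 1.92e-22). Cdk9, the kinase itself, rose 1.31-fold, and Nelfe, which helps to pause the polymerase, fell 1.41-fold. Fubp1, a factor that activates Myc transcription, had 233, 229.7, 224 and 236 CPM under IL-6, against 462, 506, 500.2 and 482 CPM in medium. It fell 2.11-fold, the fall with the smallest p in the table (adjusted p = 1.42e-23), while Myc rose.

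Folding and stress genes took separate courses by compartment. In the endoplasmic reticulum 19 of 35 rose and 6 fell: Dnajb9, a co-chaperone of BiP, had 160.3 to 177 CPM under IL-6, against 48.4 to 59.3 CPM in medium, 3.05-fold higher, Herpud1 rose 2.1-fold and Xbp1, the factor of the unfolded protein response, 1.71-fold. Among cytosolic and mitochondrial heat shock chaperones 15 of 30 fell and 4 rose, such as Stip1 (1.58-fold lower), Fkbp4 (1.56-fold lower) and Dnaja1 (1.45-fold higher). Genes of the integrated stress response and amino acid transport rose in 13 of 28 cases and fell in 0. Trib3, an inhibitor of AKT induced by this response, had 97, 98, 112 and 120.2 CPM under IL-6, against 41.9, 40.7, 39.1 and 49.1 CPM in medium and rose 2.5-fold, Slc7a11, the cystine carrier, 2.22-fold and Slc38a2, a glutamine carrier, 1.7-fold. Mogs, the first enzyme to trim sugar chains in the endoplasmic reticulum, had 182, 174, 161 and 171 CPM under IL-6, against 363, 358, 382 and 388 CPM in medium, 2.16-fold lower (adjusted p = 1.51e-21).

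Lysosomal and autophagy genes rose in 27 of 53 cases and fell in 3. Sqstm1 (p62), which carries cargo to autophagosomes, had 663, 668, 689 and 623 CPM under IL-6, against 293, 286, 316 and 296 CPM in medium. Its libraries varied little within groups, and it rose 2.22-fold (log2 1.15, SE 0.040, adjusted p = 3.76e-25). Glb1, the lysosomal beta-galactosidase, rose 1.68-fold, and Psap, the precursor of the saposins, 1.57-fold. Atg12, a conjugation factor of autophagy, fell 1.42-fold.

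Among targets of p53, 14 of 27 rose and 1 fell. Trp53inp1, which promotes p53 activity, had 97.7, 104, 100.1 and 111 CPM under IL-6, against 28.5, 26.4, 25.6 and 19 CPM in medium and rose 4.14-fold (adjusted p = 1.47e-20). Bbc3 (PUMA), a killer of the BCL2 family, rose 1.69-fold and Ccng1 1.5-fold, while Trp53 itself was the gene that fell, by 1.3-fold. In the wider list of cell death genes 9 of 35 rose and 9 fell, close to the shares of the whole table (25.7% higher and 24.3% lower), with proteins for and against survival on each side: the protective Mcl1 rose 1.49-fold and Bcl2 fell 1.38-fold, the killers Bbc3 and Bcl2l11 (BIM, 1.91-fold) rose, and Bad fell 1.36-fold. Pim1, a survival kinase and STAT target, had 224 to 250.4 CPM under IL-6, against 163 to 167 CPM in medium and rose 1.47-fold.

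Most interferon and antigen presentation genes did not pass the test. Of 37 interferon-stimulated genes 11 rose, 3 fell and 23 were not called, with a median of 0.01. Irgm1, a GTPase of defence against microbes within cells, had 45.4, 63, 58 and 47.2 CPM under IL-6, against 16.5, 24, 17.1 and 15.7 CPM in medium and rose 2.87-fold, Trim25 rose 2.0-fold and Irf9, a DNA-binding partner of STAT factors, 1.79-fold. Psmb10, an immunoproteasome subunit, fell 1.74-fold. In the MHC class I list 6 of 22 rose and 1 fell, with B2m, the light chain, 1.5-fold higher and H2-D1 1.41-fold higher. Nfkbia, the gene of the NF-κB inhibitor IκBα, had 326, 293, 302 and 291 CPM under IL-6, against 122, 115, 102 and 128 CPM in medium and rose 2.59-fold. It was 1 of 6 rises against 2 falls among 24 NF-κB genes, and Nfkb1 fell 1.38-fold. Over all genes tested 25.7% were higher and 24.3% lower, so rises in these lists were near that share and falls were fewer.

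Lists of textbook targets gave the following counts. Of 27 tested STAT3 targets 16 rose and 1 fell, with a median of 0.58. TTCNNNGAA stood in 8 of the 28 windows of that list (28.6%), which belonged to 7 genes, among them Socs3, Zfp36 and Bcl6. Among the JAK-STAT brakes it stood in 1 of 14 windows (7.14%), that of Socs3, and over all genes in 6.01% of windows. Lcn2, an acute-phase protein that STAT3 induces, rose 2.65-fold and Nfkbiz, a nuclear regulator of NF-κB, 2.1-fold, while Ifitm3 fell 1.14-fold. The list of targets of STAT5 and of IL-3 held 16 tested genes, 10 of them higher and 2 lower, with a median of 0.50. TTCNNNGAA stood in 2 of its 17 windows (11.8%), both of them of Bcl6. Both lists hold Osm, Pim1, Bcl6, Bcl2l1 and Il4ra. Gzmb, a protease that Ba/F3 cells express, had 193, 197, 197 and 189 CPM under IL-6, against 89.4, 95.9, 77.4 and 83.1 CPM in medium and rose 2.23-fold.

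Markers of blood lineages were checked for the identity of the cells. Of 21 markers of pro-B and B cells, 9 were at 0 in all 8 libraries, among them Rag1, Rag2, Blnk, Il7r and Ighm. Some defining genes of the B lineage were thus absent from these counts, while 12 of the 21 markers had counts. Of 4 tested members 2 rose and 1 fell. The 21 markers summed to 409 to 420 CPM under IL-6 and 385 to 401 CPM in medium, mostly from Ptprc. Mast cell and basophil markers summed to 1470 to 1570 CPM under IL-6 and 1250 to 1350 CPM in medium. The most abundant was Srgn, a granule proteoglycan, and 6 of the 21 were at 0 in all 8 libraries, among them Mcpt8, Tpsb2 and Cma1. Of 5 tested members 3 were higher: Fcer1g, a chain of the IgE receptor (1.56-fold), Srgn (1.16-fold) and Gata2, a factor of mast cells and progenitors (1.16-fold). Neutrophil markers summed to 582 to 627 CPM under IL-6 and 557 to 585 CPM in medium. There 6 of 7 tested members rose and 1 fell: S100a8 and S100a9, the calprotectin chains, rose 4.51-fold and 3.58-fold, whereas Camp and Ly6g were at 0. Erythroid markers summed to 775 to 816 CPM under IL-6 and 846 to 882 CPM in medium, with Alas2, Slc4a1 and Hbb-bs at 0, and 1 of 12 tested members rose and 2 fell. The riser was Hba-a2, an alpha-globin gene with a near-identical copy, at 4.07 to 8.18 CPM under IL-6, against 0 to 2.84 CPM in medium. Megakaryocyte markers summed to 266 to 310 CPM under IL-6 and 219 to 238 CPM in medium, with Vwf and Ppbp at 0. Macrophage markers summed to 134 to 163 CPM under IL-6 and 156 to 190 CPM in medium, with Cd14 at 0. T and NK markers summed to 201 to 211 CPM under IL-6 and 92.4 to 109 CPM in medium, mostly from Gzmb, with Cd3e, Cd4 and Cd8a at 0. Markers of fibroblasts and of epithelial and endothelial cells summed to 149 to 179 CPM under IL-6 and 159 to 199 CPM in medium. The part of these markers in the results was not tested. In a population, more cells with a transcript and more transcript per cell cannot be told apart.

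The response of gp130:IL-6R cells was then set against that of ChimP3V3 cells by testing the difference of the responses. The difference was called for 2284 of 9540 genes (23.9%), 1098 (11.5%) with the response of gp130:IL-6R cells above and 1186 (12.4%) with it below. Which side held more genes depended on the processing: more lay above than below with RLE or upper-quartile factors, without a filter, with a minimum of 5 CPM, with DESeq2 and without IL-6 library 1 or 4, the counts being 1283 above and 956 below with the minimum of 5 CPM and 1220 and 881 without library 4. Of the 2454 genes that rose in gp130:IL-6R cells, 830 (33.8%) also rose in ChimP3V3 cells, 74 (3.02%) fell there and 1550 (63.2%) were not called there. The difference itself was called for 708 of these 1550. Of the 2315 falls, 727 (31.4%) also fell in ChimP3V3 cells, 144 (6.22%) rose there and 1444 (62.4%) were not called there, with the difference called for 604 of these. Among the 379 genes at least 2-fold higher, the median log2 response was 1.35 in gp130:IL-6R cells and 0.26 in ChimP3V3 cells, and the difference was called above for 233 and below for 1. These genes were selected on the first value, which by itself favours a larger response in that line. Among the 77 genes at least 2-fold lower, the median was -1.17 in gp130:IL-6R cells and -0.32 in ChimP3V3 cells. In ChimP3V3 cells 1541 genes were called higher and 1083 lower.

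The genes whose response was greater in gp130:IL-6R cells included Fos, Spp1 and S100a4. Fos had 13.7, 11.1, 12.4 and 14.4 CPM under IL-6, against 23.5, 24.3, 22 and 24.4 CPM in medium in ChimP3V3 cells, where it fell 1.82-fold, and the log2 responses differed by 7.2 (SE 0.38, adjusted p = 1.31e-18). Spp1 was not called in ChimP3V3 cells (log2 0.02), and the difference was 2.01 (adjusted p = 9.49e-20). S100a4 rose there too, by 1.47-fold, with a difference of 2.7. Klf6 rose in gp130:IL-6R cells and fell 1.16-fold in ChimP3V3 cells, with a difference of 1.51. Anxa1 and Vim likewise fell in ChimP3V3 cells, with differences of 3.23 and 1.07. Sqstm1, Hexim1 and Trp53inp1 were not called there and differed by 1.2, 1.21 and 2.13. Sh2b3 was not called in ChimP3V3 cells (log2 0.34), and the responses differed by 1.36 (adjusted p = 3.34e-05).

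The genes whose response was smaller in gp130:IL-6R cells, or of opposite sign, included Pim1 and Cdk6. Pim1 rose 1.47-fold in gp130:IL-6R cells and 3.04-fold in ChimP3V3 cells, a difference of -1.05 (adjusted p = 3.36e-14). Cdk6, lower by 1.47-fold in gp130:IL-6R cells, was 1.67-fold higher in ChimP3V3 cells, with a difference of -1.3. Atg12, Muc13, a membrane mucin, Col5a1, a collagen chain, and Gria3, a glutamate receptor subunit, were lower under IL-6 in gp130:IL-6R cells and higher in ChimP3V3 cells, with differences of -1.0, -1.32, -1.25 and -1.4. The actin-severing gene Scin, the antioxidant gene Gpx1 and the chromatin remodeller gene Chd2 showed the same contrast, with differences of -1.21, -0.71 and -1.0. Mogs fell in gp130:IL-6R cells and was not called in ChimP3V3 cells (log2 0.14; difference -1.25). Socs3, by contrast, rose in both lines, by 6.64-fold in gp130:IL-6R cells and 5.23-fold in ChimP3V3 cells, and its difference was not called (log2 0.35, SE 0.23, adjusted p = 0.3).

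The same lists were counted in both lines. ERK brakes rose in 12 of 13 cases in gp130:IL-6R cells and in 4 in ChimP3V3 cells, where 2 fell. Proteasome subunits fell in 34 of 38 cases in gp130:IL-6R cells and in 27 in ChimP3V3 cells, and mitosis genes in 62 of 68 in gp130:IL-6R cells and 63 in ChimP3V3 cells. Replication genes fell in 49 of 53 cases in gp130:IL-6R cells and in 35 in ChimP3V3 cells, where 2 rose. Cholesterol genes fell in 19 of 27 cases in gp130:IL-6R cells and in 13 in ChimP3V3 cells. The difference of these counts between the lines was not tested. Gene by gene, the response of gp130:IL-6R cells was called above for 3 of 13 ERK brakes and below for 0. Their median was 0.80 in gp130:IL-6R cells and 0.31 in ChimP3V3 cells. The response was called above and below for 2 and 7 proteasome, 3 and 10 mitosis, 1 and 20 replication and 1 and 13 cholesterol genes. Over all genes tested, 11.5% were called above and 12.4% below.

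**Figure D5:**
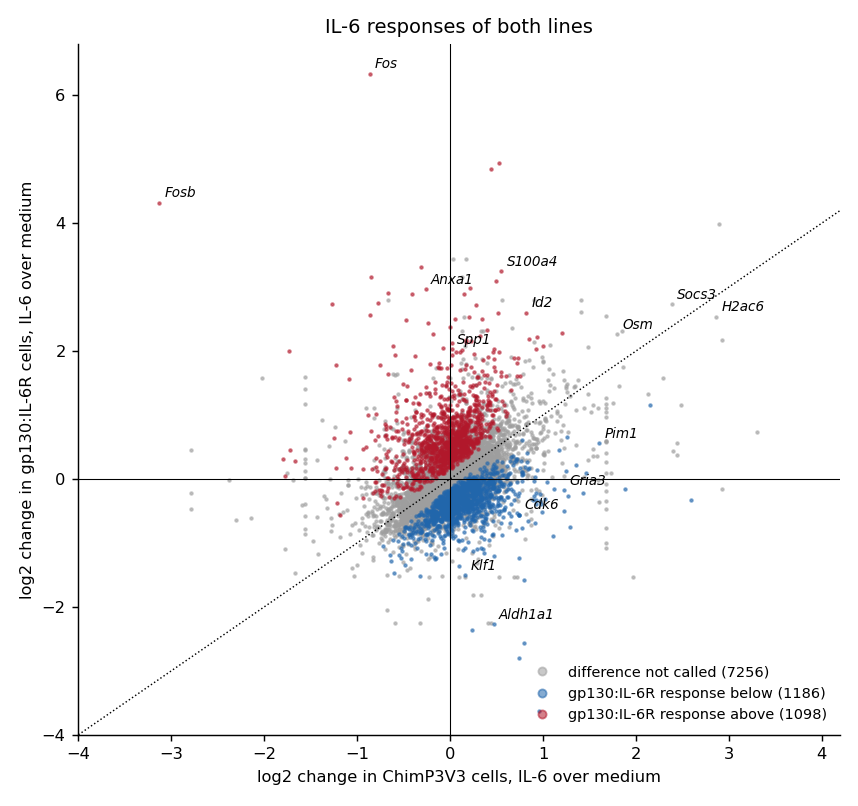
Log2 change under IL-6 over medium in gp130:IL-6R cells (vertical) against ChimP3V3 cells (horizontal), 1 point per gene tested, coloured by whether the difference of the responses was called above (1098 genes) or below (1186 genes); 3 genes lie outside the axes, and genes with 0 counts in a line are not drawn. The dotted line marks equal responses. Many points lie along the vertical axis, where gp130:IL-6R cells changed and ChimP3V3 cells changed little.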

How the data were processed

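RNA of Ba/F3 cells was read at its polyadenylated 3' ends with Lexogen's QuantSeq kit (forward version), from 100 ng of total RNA isolated on NucleoSpin columns, as single reads of 100 bases on a NextSeq2000, per the labels' protocols. The authors deposited raw counts per gene, made with CLC Genomics Workbench 23.0.4 on GRCm39 and Ensembl release 107, per the file headers. Read filters and the strand setting are not given in the sources used here, so overlapping genes are uncertain. A further 48 deposited per-library columns of normalized values were not used.

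Of 25650 genes, 10566 had 0 counts in all 16 libraries. Genes passing filterByExpr by group (minimum count 10, minimum total 15) numbered 9540 and held 99.64% of counts. Counts were scaled with TMM factors and fitted with edgeR 4.0.16 (glmQLFit, glmQLFTest; R 4.3.3) over the 16 libraries together, with a mean for each group and 12 residual degrees of freedom. Contrasts were IL-6 over medium in each line and the difference of these responses (gp130:IL-6R minus ChimP3V3), which share no library. The threshold for a call was 0.05 on the p adjusted after Benjamini and Hochberg. Fold changes come from the model, and CPM use TMM factors. n is 4 libraries per group. Counting intervals are exact at 95%. The fit was tested on simulated data.

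The groups come from the labels. The lists and the rule for named genes were chosen with earlier results of these data known. The rule named every tested member of the lists of gp130 chains, JAK and STAT genes and JAK-STAT brakes. It also named up to 4 called members per direction of each other list by p. Added to these were the 20 largest changes per direction without overlap among genes averaging at least 5 CPM. The 10 smallest p-values per direction of the response were also named. For the difference it took the 10 smallest p-values per direction among genes called for the response of gp130:IL-6R cells. The text gives a selection of them, and some genes are not reported here. Predicted genes and clones were counted only, and 58 of 237 were higher (24.5%) and 35 lower (14.8%). Of 2016 list entries 2008 matched the table. Alternatives were other scaling factors, filters, tools (DESeq2 1.42.0; limma 3.58.1 on log2(CPM + 1)), the 8 libraries alone, a replicate block, thinned counts, and each library left out. As an alternative chosen after seeing the data, libraries linked through pairs within sampling noise were summed, which also joined 2 pairs that differed beyond it. Promoter windows are RefSeq's on GRCm38.p6, not the build of the counts. They were matched by Ensembl identifier, or by symbol where no identifier was found. Plots were drawn with matplotlib 3.10.9 and tables made with pandas 2.3.3 (Python 3.11.15).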

Additional observations from a re-analysis of the deposited data

Results flagged for a closer look

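In 6 of 180 groups of 4 libraries examined, 1 library lay so far from the other 3 that its gap divided by the range of the group exceeded the 95% critical value of Dixon's test, and chance flags about 1 in 20 groups. Il6 had 1 IL-6 library at 152 CPM (gap over range 0.884), Pias3 1 at 37.1 CPM (0.897), Id2 1 at 165 CPM (0.83) and Mvk, an enzyme of sterol synthesis, 1 at 5.72 CPM (0.834). In medium, Rtp4, an interferon-induced chaperone, had 1 library at 2.84 CPM (0.932) and Rgs2 1 at 82.4 CPM (0.836). In all 6 cases the IL-6 and medium libraries still did not overlap.

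The responses of gp130:IL-6R and ChimP3V3 cells to IL-6 differed by the test of the difference for the genes named here. They had the smallest p-values in each direction among genes called for the response of gp130:IL-6R cells, and other genes could not enter. The log2 response of gp130:IL-6R minus that of ChimP3V3 cells was 7.20 for Fos, 3.23 for Anxa1, 2.70 for S100a4, 2.13 for Trp53inp1, 2.01 for Spp1, 1.51 for Klf6, 1.21 for Hexim1, 1.2 for Sqstm1 and 1.07 for Vim. It was -1.40 for Gria3, -1.32 for Muc13, -1.30 for Cdk6, -1.25 for Col5a1, -1.25 for Mogs, -1.21 for Scin, -1.05 for Pim1, -1.0 for Atg12, -1.0 for Chd2 and -0.71 for Gpx1.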

How the results depend on the processing

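Over 19 alternative settings, no called response of a named gene turned direction. The one count of all genes that moved by more than 1.5 times was that of genes whose response was lower in gp130:IL-6R than in ChimP3V3 cells, 739 with DESeq2 against 1186, and the cause was not tested. DESeq2 called 3994 genes for the response, all among the 4769, and 1556 for the difference. Of the difference, more genes lay above than below with RLE factors (1152 and 1123), upper-quartile factors (1197 and 1067), no filter (1257 and 903), at least 5 CPM (1283 and 956), DESeq2 (817 and 739) and without IL-6 library 1 (1208 and 902) or 4 (1220 and 881), and fewer in the other 11 settings that gave it. Leaving out 1 library at a time gave 4446 to 4500 genes called (higher 2212 to 2366, lower 2117 to 2265), 1518 to 1582 at 1.5-fold or more (higher 930 to 1003, lower 554 to 612) and 2101 to 2199 for the difference (above 1012 to 1220, below 881 to 1166). Replicate numbers did not pair the libraries: same-numbered libraries of both groups deviated with correlations from -0.088 to 0.013, and no library went best with its own number. With the replicate number as a block, 4706 genes were called, 1538 at 1.5-fold or more and 2204 for the difference. With libraries linked through pairs within sampling noise summed, 4688 were called, and the ChimP3V3 medium group, then 1 sample, was assumed to vary like the others. Of called list counts, 46 moved by more than 1.5 times and 2386 did not. Named responses lost their call in 57 fits, gained it in 2 and kept it or stayed uncalled in 7688. The difference between the lines was less stable for the named genes, with 141 calls lost, 128 gained and 7061 as before. For the response, Cish lost its call in 9 of 19 settings and Ptpn6 in 7. Without medium library 4 the log2 rise of Trib1 was 3.59, and without IL-6 library 2 the fall of Fam216a, at 0.678, 20.8, 0 and 13.2 CPM under IL-6, was -3.39. Depth limits genes under about 2 CPM, where few counts set the fold.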
